A study of Homo sapiens with 12 samples.

Results

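BMF and 9 relatives of the BCL2 family were followed by RNA-seq in pancreatic ductal adenocarcinoma cells with and without knockdown of GOT1, the cytosolic aspartate transaminase. The 10 genes (BMF, BBC3, PMAIP1, BCL2L11, BID, BAX, BAK1, BCL2, BCL2L1 and MCL1) were taken by symbol from the 58721 genes of the deposited tables, and each symbol was found. BMF was chosen by its counts in Pa-Tu-8902, where its rise with GOT1 knockdown was among the largest, so its values in that line are given as a description with no test. The other 9 members came in as its family. The cells were Pa-Tu-8902 and MIA PaCa-2, established human pancreatic cancer lines grown in DMEM with serum. Every library came from iDox-shGOT1 cells, in which doxycycline (dox) switches on a short hairpin RNA that targets GOT1. Each line had 3 untreated libraries and 3 libraries from cells given dox for 5 days before RNA was taken. The sample labels and the methods give the dox dose in different units (µM/mL and µg/mL), and neither says which GOT1 hairpin was in the sequenced cells. All 12 libraries carry the hairpin and no dox-treated library lacks it, so an effect of dox and an effect of GOT1 loss cannot be told apart.

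The BCL2 family decides whether the outer mitochondrial membrane is breached during apoptosis. BAX and BAK1 are the effectors that open the membrane and let cytochrome c out, BCL2, BCL2L1 (BCL-XL) and MCL1 hold them in check, and the BH3-only proteins, here BMF, BBC3 (PUMA), PMAIP1 (NOXA), BCL2L11 (BIM) and BID, relieve that check by fitting a short helix, the BH3 domain, into a groove of the protective proteins or by engaging the effectors directly. BMF is known to be held at the cytoskeleton through dynein light chain DYNLL2 and to act when cells lose attachment or growth signals.

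The BH3 core is the feature that all 10 members share, and its coding stretch is printed for each to show what the RNAs below encode. The core was searched in the canonical coding sequences of GENCODE release 44 as a leucine, any 3 residues, a glycine or alanine, an aspartate, any residue and then a phenylalanine, leucine, valine, methionine or isoleucine. It was found once in each of the 10 genes and in 8.74% of 19820 canonical coding sequences, so a match is a description and not proof of a BH3 domain. Each stretch has 24 bases inside a coding exon of GRCh38, printed 5′ to 3′ on the coding strand, with the codons of the leucine and of the glycine or alanine and aspartate in capitals.
BMF: CTTcagtgcattGCAGACcagttc (chr15:40104201-40104224, minus strand)
BBC3: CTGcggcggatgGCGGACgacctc (chr19:47226585-47226608, minus strand)
PMAIP1: CTCaggagatttGGAGACaaactg (chr18:59902673-59902696, plus strand)
BCL2L11: TTGcggcgtattGGAGACgagttt (chr2:111150103-111150126, plus strand)
BID: CTCgcccaggtcGGGGACagcatg (chr22:17739421-17739444, minus strand)
BAX: CTCaagcgcatcGGGGACgaactg (chr19:48955787-48955810, plus strand)
BAK1: CTCgccatcatcGGGGACgacatc (chr6:33575393-33575416, minus strand)
BCL2: CTCcgccaggccGGCGACgacttc (chr18:63318355-63318378, minus strand)
BCL2L1: CTGagggaggcaGGCGACgagttt (chr20:31721928-31721951, minus strand)
MCL1: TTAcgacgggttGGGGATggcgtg (chr1:150578871-150578894, minus strand)
The same-length cores sit at different depths of their coding sequences, from codon 29 of PMAIP1 to codon 213 of MCL1, counted from the first codon.

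The libraries held 26226516 to 43406131 counts. GOT1 had a log2 fold change of −4.64 with dox in Pa-Tu-8902 (SE 0.09, edgeR quasi-likelihood adjusted p = 1.51e-09, n = 3 against 3), and in MIA PaCa-2 one of −4.76 (SE 0.11, edgeR adjusted p = 1.06e-09). Replicates were not described as separate cultures for this assay, so the p-values measure the spread between these libraries, which may be technical. Epithelial markers (CDH1, EPCAM, KRT8, KRT18, KRT19 and CLDN4) were all present in Pa-Tu-8902. MIA PaCa-2 had under 1 TPM of CDH1 and EPCAM. It still held KRT8 (1382 TPM or more), KRT18 (895 or more), KRT19 (127.68 or more) and CLDN4 (88.95 or more). Mesenchymal markers were mixed. VIM, an intermediate filament of mesenchymal cells, stood at 3531 to 4218 TPM in MIA PaCa-2 and ZEB1 at 7.71 to 12.37 TPM, both above their Pa-Tu-8902 levels. CDH2 and FN1 reached at most 0.01 and 0.16 TPM there, lower than the 0.56 to 1.16 and 0.36 to 1.02 TPM of Pa-Tu-8902. The summed fibroblast markers rose with dox from 3.76 to 6.31 TPM up to 17.6 to 21.3 TPM in Pa-Tu-8902, carried by COL1A1, and from 192 to 248 TPM up to 340.3 to 398 TPM in MIA PaCa-2, carried by COL1A2. DCN and LUM, the other fibroblast markers, stayed under 1 TPM in each library. Leukocyte markers summed to 3.38 to 13.5 TPM and endothelial markers to at most 1.14 TPM, and the part of any of these markers in the results below was not tested.

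The first question was how the family moved when GOT1 was knocked down in Pa-Tu-8902. BBC3 and BCL2L11, both BH3-only, were called higher, the latter not when effective lengths were used as offsets, and the protective members BCL2, BCL2L1 and MCL1 were called lower. PMAIP1, also BH3-only, was lower by less than the fold limit, and with BID, BAX and BAK1 it was not called. A gene was called where its adjusted p was under 0.01 and it changed 1.5-fold or more, and normalized counts are expected counts divided by the relative effective size of each library, on 1 scale for all 12 libraries. By this rule 5 of the 9 members other than BMF were called (55.6%, 2 higher and 3 lower), against 16.3% of the 14949 genes tested in this line, of which 9.22% were higher and 7.12% lower. Their median log2 fold change was 0.03, and that of all genes tested was 0.0014. The members were chosen with earlier results of these data known, so the shares called are given as a description.

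BMF (ENSG00000104081.13, chr15:40087890-40108892, minus strand) had 14, 14 and 12 counts in the untreated Pa-Tu-8902 libraries and 249, 268 and 228 with dox. On the normalized scale these were 16.3, 12.8 and 13.1 without dox and 230.1, 203 and 233 with dox. The groups lay far apart, and the fitted log2 fold change was 3.98 (SE 0.17, 15.8-fold). Ordered by fold change among 970 genes called higher in this line whose mean was 100 normalized counts or more, BMF held place 2. This place restates the rise by which BMF was chosen and lends it no weight. BMF passed the mean limit only through its dox libraries (mean 222, against 14.1 without dox). Without that limit 1379 genes were called higher, and the place of BMF among them is not given. Just above it stood MGP (log2 fold change 6.64), a matrix protein with no more than 3 counts in any untreated library, so its fitted value depends on the prior count. Just below stood BCAS1 (log2 fold change 3.88). The size of the BMF rise depended on how transcript length was treated: with the effective lengths of RSEM as offsets it was 2.99 on the log2 scale (SE 0.39). DESeq2 gave 3.99, and 2.98 once its estimate was shrunken.

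**Figure D1:**
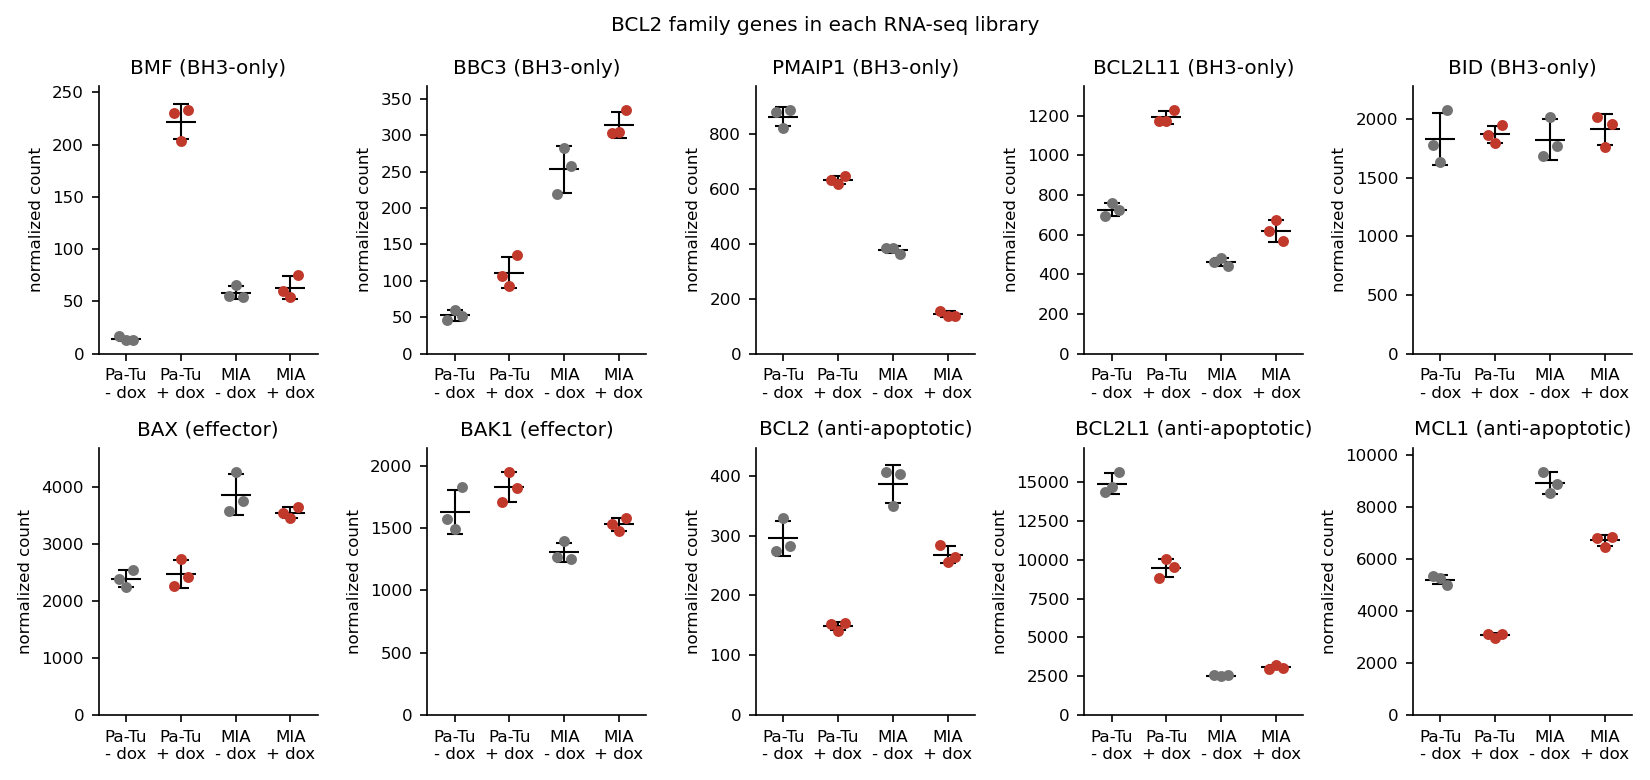
Normalized count (vertical axis, linear, from 0) of each of the 10 genes in each library, grouped as Pa-Tu-8902 and MIA PaCa-2 (MIA) without (grey) and with (red) dox; points are libraries, long bars are means and whiskers are SD (n = 3). BMF stood at 12.8 to 16.3 in untreated Pa-Tu-8902 and 203 to 233 with dox, and PMAIP1 at 363 to 386 in untreated MIA PaCa-2 and 136 to 156 with dox.

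Among the other BH3-only genes, BBC3 (ENSG00000105327.17, chr19:47220822-47232766, minus strand), a target of p53 that binds all the protective members, had normalized counts of 45.4, 60.5 and 51.2 in untreated Pa-Tu-8902 and 106, 92.5 and 135 with dox. Each dox library was above each untreated one, and BBC3 was called higher (log2 fold change 1.07, SE 0.19, edgeR adjusted p = 8.63e-04). BCL2L11 (ENSG00000153094.22, chr2:111119378-111168444, plus strand) had normalized counts of 693, 759 and 726 without dox and 1173, 1176 and 1228 with dox. It was called higher as well (log2 fold change 0.72, SE 0.06, edgeR adjusted p = 3.39e-06). With effective lengths as offsets the call was lost (log2 fold change 0.29, edgeR adjusted p = 0.223). In TPM, which uses those lengths, the untreated libraries spread from 7.12 to 14.4 around dox values of 12.8 to 13.6. The highest was untreated replicate 1, with 47.1% of TPM on BCL2L11-225, against 8.0% and 0.0% in replicates 2 and 3. Its effective length was 1962, against 3072 and 3844. MIA PaCa-2 dox replicate 3 was alike, with 54.9% on this transcript and a length of 2003. Whether RSEM misassigned these reads was not tested. BCL2L11 shares 727 of 6742 exonic bases with MIR4435-2HG on the opposite strand, and no strand setting is stated for the counting, so reads of that stretch cannot be told apart. MIR4435-2HG itself had normalized counts of 1687 to 1761 without and 1538 to 1756 with dox and was not called (log2 fold change −0.05, SE 0.06, edgeR adjusted p = 0.516).

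PMAIP1 (ENSG00000141682.11, chr18:59899996-59904305, plus strand), which binds MCL1 in particular, moved the other way. Its normalized counts were 878, 823 and 886 in untreated Pa-Tu-8902 and 630.4, 617 and 646 with dox. The groups did not overlap and the adjusted p passed, but the log2 fold change of −0.45 (SE 0.06, edgeR adjusted p = 1.49e-04) was under the fold limit. With no fold limit 6 of the 9 members would pass, beside 38.1% of all genes tested. BID (ENSG00000015475.18, chr22:17734138-17774770, minus strand), which caspase cleavage activates, had 1780, 1631 and 2073 normalized counts without dox and 1860, 1798 and 1944 with dox. These ranges lay inside each other, with a log2 fold change of 0.03 (95% interval −0.12 to 0.19).

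Of the effectors, BAX (ENSG00000087088.19, chr19:48954815-48961798, plus strand) had normalized counts of 2386, 2245 and 2536 in untreated Pa-Tu-8902 and 2261, 2742 and 2426 with dox. BAK1 (ENSG00000030110.12, chr6:33572547-33580293, minus strand) had 1574, 1488 and 1827 without dox and 1712, 1950 and 1823 with dox. Neither was called, and the ranges overlapped for both. The log2 fold change was 0.06 for BAX (95% interval −0.09 to 0.20) and 0.17 for BAK1 (95% interval 0.02 to 0.32, edgeR adjusted p = 0.0892).

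The protective members fell together in Pa-Tu-8902. BCL2 (ENSG00000171791.12, chr18:63123346-63320128, minus strand) had normalized counts of 274, 329 and 283 without dox and 152, 141 and 153 with dox (log2 fold change −0.99, SE 0.11, edgeR adjusted p = 3.24e-05). BCL2L1 (ENSG00000171552.12, chr20:31664452-31723989, minus strand) had 14340, 14710 and 15670 normalized counts without dox and 8852, 10040 and 9537 with dox (log2 fold change −0.65, SE 0.06, edgeR adjusted p = 5.51e-06). MCL1 (ENSG00000143384.12, chr1:150560895-150579738, minus strand), a short-lived protein, had 5335, 5257 and 5007 without dox and 3111, 2961 and 3099 with dox (log2 fold change −0.77, SE 0.05, edgeR adjusted p = 6.43e-07). In all 3 genes every dox library was below every untreated one. Groups failed to overlap for 6 of the 9 members other than BMF (2 higher and 4 lower), beside 58.1% of all genes tested, 28.6% higher and 29.6% lower.

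The same comparison was then made in MIA PaCa-2, a line whose values had no part in the choice of BMF. BMF was not called in this line: its normalized counts were 55.2, 65.4 and 54.5 without dox and 59.7, 53.7 and 75.0 with dox, and the groups overlapped. The log2 fold change was 0.12 (95% interval −0.28 to 0.52, edgeR adjusted p = 0.668), and without dox replicate 3 it was −0.04. PMAIP1 was the only member called, and it fell from 384, 386 and 363 normalized counts to 156, 137 and 136 (log2 fold change −1.40, SE 0.10, 2.64-fold lower, edgeR adjusted p = 1.85e-06). That is 10.0% of the 10 members, against 12% of the 14589 genes tested, of which 4.36% were higher and 7.64% lower.

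Several members of the family moved in MIA PaCa-2 by less than the fold limit. BCL2L11 was higher, with 461, 481 and 439 normalized counts without dox and 619, 677 and 566 with dox (log2 fold change 0.43, SE 0.09, edgeR adjusted p = 0.00254). BCL2 was lower, with 407, 350 and 402 against 284, 257 and 265 (log2 fold change −0.52, SE 0.10, edgeR adjusted p = 0.00143), and it was called at −0.60 when untreated replicate 2 was left out. MCL1 was lower as well, with 9348, 8526 and 8875 against 6822, 6474 and 6832 (log2 fold change −0.41, SE 0.06, edgeR adjusted p = 3.02e-04). BCL2L1 went the other way than in Pa-Tu-8902, with 2555, 2504 and 2564 against 2991, 3220 and 3022 (log2 fold change 0.28, SE 0.06, edgeR adjusted p = 0.00307). With no fold limit these 4 and PMAIP1 make 5 of 10 members, beside 27.2% of all genes tested.

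The remaining members of MIA PaCa-2 did not pass the threshold on p. BBC3 had 219, 283 and 257 normalized counts without dox and 303, 304 and 334 with dox (log2 fold change 0.32, 95% interval 0.10 to 0.54, edgeR adjusted p = 0.0419). BAK1 had 1266, 1393 and 1252 against 1530, 1479 and 1581 (log2 fold change 0.23, 95% interval 0.10 to 0.37, edgeR adjusted p = 0.0161). For both genes the dox libraries lay above the untreated ones. BAX had 3568, 4262 and 3748 against 3533, 3461 and 3646, and BID had 1680, 2015 and 1769 against 2013, 1763 and 1956, with overlapping groups in both (log2 fold changes −0.12 and 0.07). Groups failed to overlap for 7 of the 10 members in MIA PaCa-2 (4 higher and 3 lower), beside 52.8% of all genes tested, 25.6% higher and 27.2% lower. ADAMTSL4, which shares 43 of the 6222 exonic bases of MCL1 on the opposite strand, was also lower in MIA PaCa-2 (473 to 528 normalized counts without and 324 to 344 with dox), at levels far under those of MCL1, and its part in the MCL1 value was not tested.

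**Figure D2:**
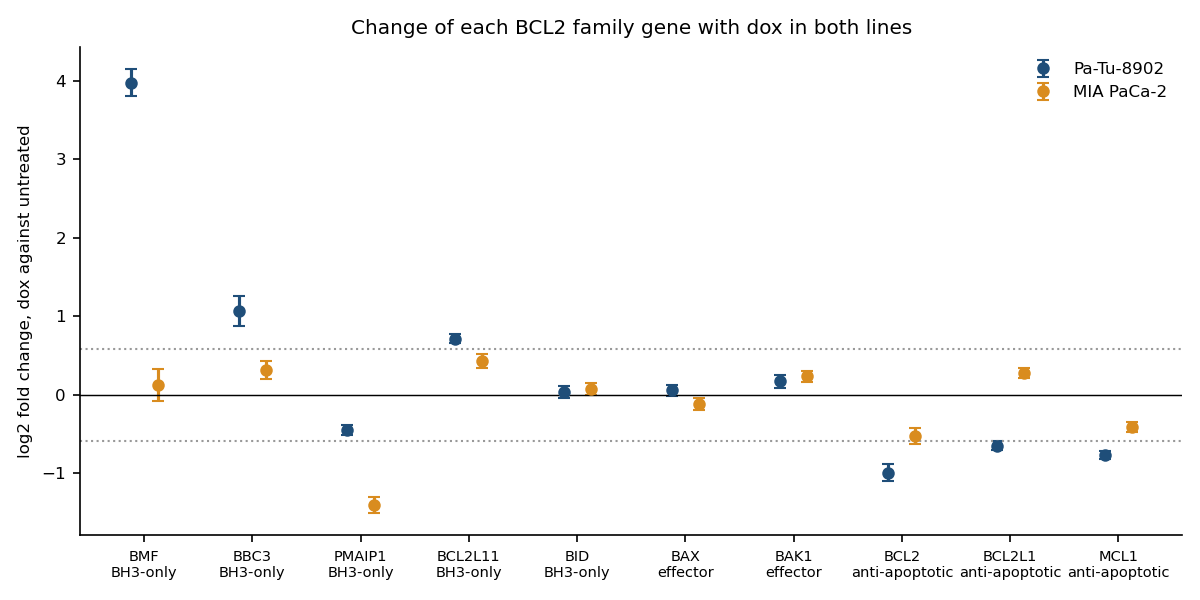
Log2 fold change of dox against untreated (vertical axis) for each of the 10 genes in Pa-Tu-8902 (blue) and MIA PaCa-2 (orange); points are edgeR estimates from 3 libraries against 3, whiskers are SE and dotted lines mark a fold change of 1.5 in either direction. In Pa-Tu-8902 BMF stood at 3.98 and BCL2L1 at −0.65, and the values of these genes for MIA PaCa-2 were 0.12 and 0.28.

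Whether a member responded differently in the 2 lines was tested directly, as an interaction term over all 12 libraries. Of the 9 members other than BMF, PMAIP1 and BCL2L1 were called (22.2%, 1 in each direction, against 10.4% of 16544 genes tested, 6.56% higher and 3.86% lower). PMAIP1 fell less in Pa-Tu-8902 than in MIA PaCa-2, by 0.95 on the log2 scale (SE 0.12, edgeR adjusted p = 9.16e-06). BCL2L1 fell in Pa-Tu-8902 while it was slightly higher in MIA PaCa-2, a difference of −0.93 (SE 0.09, edgeR adjusted p = 4.21e-07). MCL1 fell more in Pa-Tu-8902 by a difference under the fold limit (−0.36, SE 0.08, edgeR adjusted p = 0.00255), and 3 of the 9 pass with no fold limit, beside 16.9% of all genes. For BBC3 the difference was 0.75 (SE 0.22, edgeR adjusted p = 0.0176), which passed with DESeq2 (adjusted p = 0.00842), with no filter on low counts (0.00445) and without Pa-Tu-8902 dox replicate 2 (0.00645). The differences for BCL2 (−0.47, SE 0.15), BCL2L11 (0.29, SE 0.11), BAX (0.17, SE 0.11), BAK1 (−0.06, SE 0.11) and BID (−0.04, SE 0.12) were not called. BMF differed by 3.86 (SE 0.27), given as a description since the Pa-Tu-8902 rise is part of it.

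The lines were also compared before dox. Of the 9 members other than BMF, 6 were called between untreated Pa-Tu-8902 and untreated MIA PaCa-2 (66.7%, 3 in each direction), a share near the 57.5% of 16544 genes tested (29.4% higher and 28.2% lower). BCL2L1 was higher in Pa-Tu-8902 (14910 against 2541 mean normalized counts, log2 fold change 2.55, SE 0.06, edgeR adjusted p = 1.33e-16), as were PMAIP1 (1.19, SE 0.08) and BCL2L11 (0.66, SE 0.08). BBC3 was lower in Pa-Tu-8902 (52.4 against 253, log2 fold change −2.26, SE 0.16, edgeR adjusted p = 5.35e-10), as were MCL1 (−0.78, SE 0.06) and BAX (−0.69, SE 0.08). BAK1 (0.32, SE 0.08) and BCL2 (−0.38, SE 0.10) passed on p but not on fold, which makes 8 of 9 with no fold limit beside 73.7% of all genes tested, and BID differed by 0.01 (95% interval −0.16 to 0.17). BMF was lower in untreated Pa-Tu-8902 than in untreated MIA PaCa-2 (14.1 against 58.4 mean normalized counts), and with dox it was above it (222 against 62.8), also given as values only.

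Levels were compared between genes on the TPM scale, which corrects for transcript length. In untreated Pa-Tu-8902 the order of mean TPM was BCL2L1 (290.0), BAX (156), BID (76.6), MCL1 (60.1), BAK1 (34.3), PMAIP1 (20.5), BCL2L11 (10.6), BCL2 (1.99), BBC3 (1.57) and BMF (0.38). Ranges of neighbours overlapped for BID and MCL1 and for BCL2 and BBC3. With dox BCL2L1 came down to 189 to 201 TPM, a range that overlapped that of BAX (174 to 200.4 TPM), and MCL1 came down to 34.5 to 40.9 TPM beside BAK1 at 39.3 to 42.0 TPM. These TPM are totals over all transcripts of a gene, and forms of BCL2L1 and BAX are given below. BMF stood at 0.15, 0.69 and 0.30 TPM without dox and at 2.54, 1.92 and 2.94 TPM with dox, where it passed BCL2 (1.22 to 1.37 TPM) and overlapped BBC3 (2.78 to 3.85 TPM). Even at its highest, BMF RNA was a small part of the family.

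In MIA PaCa-2 the order began with BAX (230.4 to 236 TPM without dox), and BCL2L1 stood in place 4 at 43.9 to 54.7 TPM. MCL1 was next to BAX at 86.7 to 112 TPM without dox, overlapping BID at 77.7 to 91.0 TPM. BMF was last without dox (0.54 to 0.80 TPM) and with dox (0.50 to 0.68 TPM). Summed over the roles, the protective genes went from 347 to 362 TPM in untreated Pa-Tu-8902 to 231 to 241 TPM with dox, and in MIA PaCa-2 from 133 to 169 TPM to 142 to 149 TPM. The BH3-only genes summed to 97.5 to 119.9 TPM without and 116 to 133 TPM with dox in Pa-Tu-8902, most of it BID, and the effectors to 183 to 202 TPM and 213 to 242 TPM. The protective sum thus exceeded the effector sum in each untreated Pa-Tu-8902 library. With dox it stayed above in replicate 1 (231.3 against 213.3 TPM) and replicate 3 (241 against 223.6 TPM). Only in replicate 2 was it below (233.3 against 242.4 TPM). In MIA PaCa-2 the effectors summed to 257.9 to 263.2 TPM without and 246.8 to 261.5 TPM with dox, above the protective sum throughout. All these sums are whole-gene totals, which take in every transcript, such as the short BCL2L1 form and BAX-212 described below. Transcripts that encode the BH3 core gave BAX 119.5 to 133.9 TPM in untreated Pa-Tu-8902. Under dox they gave a similar 120.7 to 133.5 TPM. Sums over core-coding transcripts alone were not compared.

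**Figure D3:**
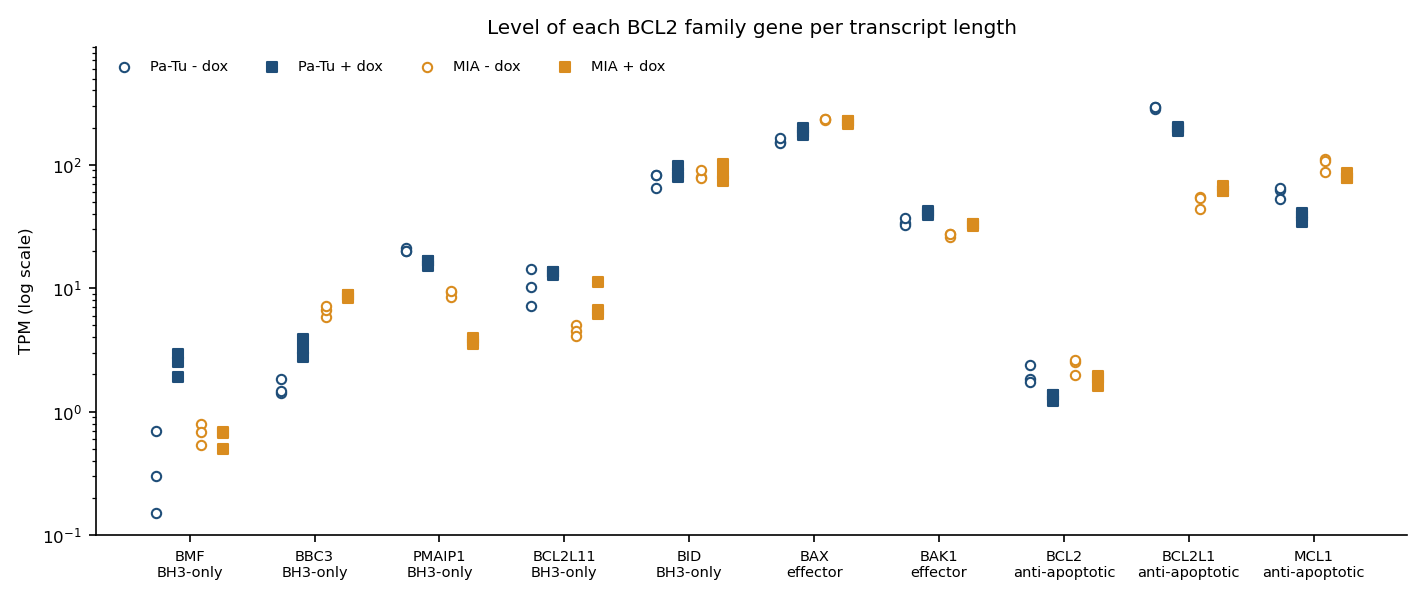
TPM of each of the 10 genes (vertical axis, log scale) in each library of Pa-Tu-8902 (blue) and MIA PaCa-2 (orange), untreated (open circles) and with dox (filled squares). BCL2L1 stood at 283 to 295 TPM in untreated Pa-Tu-8902 and 189 to 201 TPM with dox, and BMF spanned 0.15 to 2.94 TPM in that line.

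Transcript estimates were read to see which forms the counts came from. Most BMF counts fell on BMF-201 and BMF-202, which carry the same 552 coding bases with the BH3 core. In Pa-Tu-8902 with dox, BMF-202 held 188, 170 and 174 counts and BMF-201 held 58.2, 98.2 and 47.3. In untreated MIA PaCa-2 BMF-202 held 53.9, 61.0 and 39.3 counts, and with dox 2 of 3 libraries had none on it and 50.9 and 45.0 on BMF-201. The 2 forms share their coding sequence, so a shift between them leaves the share with the BH3 core as it was. Whether this shift is a change of form or an error in how RSEM assigned reads was not tested. In untreated Pa-Tu-8902, where counts were few, BMF-202 held 14, 9.5 and 9.68 counts and BMF-201 none. In replicate 2, 3 of the 14 counts were assigned to BMF-208, a form of 490 bases, and 1.5 to BMF-207, and that library had the highest TPM of its group (0.69). In replicate 3, 2.32 of the 12 counts were assigned to BMF-210, which also has 552 coding bases with the core. BMF-AS1, on the opposite strand over 461 exonic bases of BMF, had 0 counts in all 12 libraries.

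**Figure D4:**
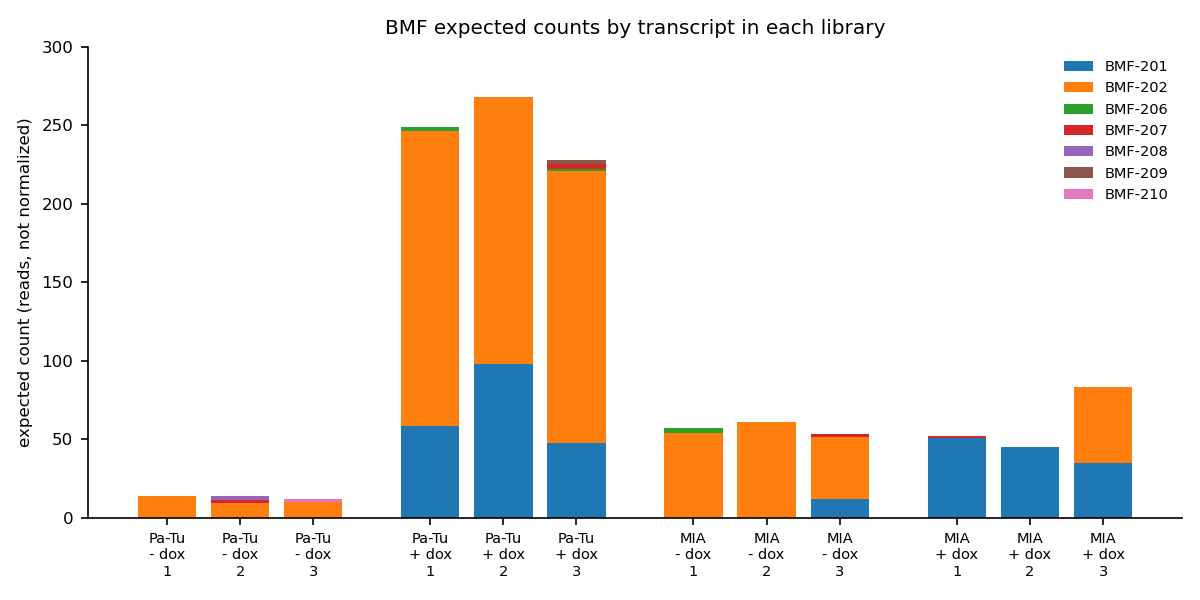
Expected counts of BMF (vertical axis, reads that are not normalized, from 0) stacked by transcript, 1 bar for each library, in Pa-Tu-8902 and MIA PaCa-2 (MIA) without and with dox, numbered by replicate. Bars stood at 12 to 14 in untreated Pa-Tu-8902 and 228 to 268 with dox, with BMF-202 (orange) the largest part of each bar in that line.

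BCL2L1 makes a long protective form and, by splicing, a short form that is known to promote death. The long form (699 coding bases) fell from 231 to 237 TPM to 148 to 160 TPM in Pa-Tu-8902 and went from 35.6 to 43.1 TPM to 48.4 to 55.7 TPM in MIA PaCa-2. In Pa-Tu-8902 the short form (510 coding bases) held 17.4% to 19.7% of BCL2L1 TPM without dox and 18.2% to 22.2% under dox (exact permutation p = 0.3, two-sided), and 14.3% to 20.4% against 14.6% to 17.6% in MIA PaCa-2 (exact permutation p = 0.9). With 3 libraries against 3 this test cannot go below 0.1. The level of the short form was lower in Pa-Tu-8902 as well, at 49.3, 53.9 and 57.5 TPM without dox and 38.7, 35.9 and 44.6 TPM with dox, and these groups did not overlap.

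The share of each gene held by transcripts that encode the BH3 core was compared for 8 members. BCL2L11 and BID were left out because 28.8% to 72.7% and 23.8% to 46.8% of their TPM fell on transcripts of GENCODE release 29 with no match in release 44. Groups did not overlap in 2 of 16 pairs of member and line, and 4 of the 16, those of BCL2 and BCL2L1, stood at the whole TPM in every library and could not separate. The nearest measure over all protein-coding genes was the share of TPM on protein-coding transcripts. By it groups did not overlap in 11.3% of 12487 genes in Pa-Tu-8902 and 13.8% of 12237 in the other line. By this same measure they did not overlap in 2 of the 8 members in Pa-Tu-8902 (25%) and in 0 of 8 in MIA PaCa-2. In each line 4 of the 8 varied at all, and the difference from all genes was not tested. In Pa-Tu-8902 the BAX share went from 79.6%, 81.0% and 86.5% (ordered by size) without dox to 66.6%, 69.4% and 72.1% with dox (exact permutation p = 0.1, the smallest it can give, two-sided and not adjusted over the 16). By expected counts, which weigh short transcripts less, the same shift was −3.3 points. BAX-212, an annotated target of nonsense-mediated decay that was singled out after its values were seen, had 2.40, 9.73 and 13.6 TPM without and 23.0, 31.2 and 26.7 TPM with dox in this line, and 18.1 to 21.1 TPM without and 4.56 to 16.4 TPM with dox in MIA PaCa-2. The BAK1 share in MIA PaCa-2 was 92.8% to 97.5% without and 97.6% up to its whole TPM with dox (exact permutation p = 0.1).

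Genes whose pattern over the 12 libraries was most like that of BMF were named by Pearson's r of log2 normalized counts among 11660 genes whose mean was 100 or more. They were NKD2 (r = 0.978), MAGI1 (0.967), SORBS2 (0.965), UNC5B (0.965) and SLC35E2B (0.964). These r values rest on the rise in Pa-Tu-8902 and on the gap between the lines, which all 12 points share, and carry no p. SORBS2 had 111 to 154 normalized counts in untreated Pa-Tu-8902, 523 to 533 with dox, 290 to 362 in untreated MIA PaCa-2 and 273 to 330 with dox. UNC5B, a netrin receptor, was called higher in both lines (50.1 to 60.5 up to 409 to 456, and 124 to 171 up to 214 to 246). With Spearman's rho in place of Pearson's r, 0 of these 5 genes stayed among the top 5, and with a prior count of 5 in place of 1, 3 did.

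The machinery around the family was described with 7 lists of 85 genes in all, chosen with earlier results of these data known. They are given as counts with values for the genes named, the shares called are of the genes tested, and beside them stand 16.3% and 12% of all genes tested in Pa-Tu-8902 and MIA PaCa-2. Of 13 other BCL2 relatives, 9 were tested in Pa-Tu-8902 and HRK, a BH3-only gene, was called lower (111 against 67.1 mean normalized counts, log2 fold change −0.72, SE 0.16, edgeR adjusted p = 0.00293). That call was lost without untreated replicate 1 or 3 or dox replicate 2 or 3, each time leaving 0 called, and with effective lengths as offsets. In MIA PaCa-2 8 were tested, BNIP3L, a mitophagy receptor, was higher (log2 fold change 0.79, SE 0.06), and BAD, a BH3-only gene inactivated by survival kinases, was lower (−0.67, SE 0.10). The share called was 11.1% for Pa-Tu-8902 and 25% for the other line. The median log2 fold change of the list was −0.33 for Pa-Tu-8902 and 0.13 for MIA PaCa-2, beside 0.0014 and −0.0089 for all genes tested.

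Downstream, the caspases and apoptosome genes had 11 of 11 members tested in each line. In Pa-Tu-8902 2 were called higher and 1 lower, and CASP10, an initiator caspase, was among the higher ones (log2 fold change 2.22, SE 0.24, named after its values were seen). In MIA PaCa-2 2 were called lower, among them APAF1, the scaffold that cytochrome c activates (−0.64, SE 0.10). The shares called were 27.3% and 18.2%, and the list medians −0.17 and 0.02.

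Among the inhibitor of apoptosis proteins and their antagonists, 8 genes were tested for Pa-Tu-8902 and 7 for MIA PaCa-2. BIRC3, a ubiquitin ligase of NF-kB signalling, was called higher in both, from 281 to 1958 mean normalized counts in MIA PaCa-2 (log2 fold change 2.80, SE 0.07) and from 7023 to 11600 in Pa-Tu-8902 (0.73, SE 0.06). XAF1, an antagonist of XIAP, was higher in Pa-Tu-8902 (1.03, SE 0.07) and BIRC2 in MIA PaCa-2 (0.74, SE 0.07), and none was called lower in either line. The shares called were 25% and 28.6%, and the list medians 0.21 and 0.16.

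In the death receptor pathway 9 genes were tested in each line. TNFSF10, the ligand TRAIL, was the only gene called in Pa-Tu-8902, at low counts (4.31 ± 1.54 against 27.4 ± 1.66 normalized counts, SD, n = 3, log2 fold change 2.67, SE 0.37, edgeR adjusted p = 1.40e-04). It was no longer tested when 10 counts were asked of every library, or when a dox replicate was left out, since fewer than 3 libraries then reached 10 counts. The list had 0 called genes under that stricter filter and without dox replicate 2 or 3, and 2 without untreated replicate 3. In MIA PaCa-2 the receptors FAS (0.71, SE 0.19, edgeR adjusted p = 0.00996) and TNFRSF10B (0.68, SE 0.06, edgeR adjusted p = 4.50e-06) were higher. One of these calls was lost without untreated replicate 1 or 3 or without dox replicate 1 or 3, leaving 1. The shares called were 11.1% and 22.2%, and the list medians 0.14 and 0.02.

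Of 12 binding partners and turnover factors, SFN, a 14-3-3 protein, was lower in Pa-Tu-8902 (log2 fold change −1.01, SE 0.09), and 0 were called in MIA PaCa-2 by edgeR, where 1 was without untreated replicate 1, dox replicate 1 or dox replicate 3. DESeq2 also called 0 of them there, and 6 had an unadjusted p under 0.05 by edgeR. DYNLL2, the BMF partner, was higher in both lines by less than the fold limit (0.50, SE 0.06, for Pa-Tu-8902 and 0.55, SE 0.08, for MIA PaCa-2), and it was chosen here as a named partner of BMF after its values were seen. The share called in Pa-Tu-8902 was 8.33%, and the list medians were 0.12 and 0.05.

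Of 15 transcription factors known to act on BH3-only genes, HIF1A (log2 fold change 0.62, SE 0.05), TP63 and FOXO4 were higher in Pa-Tu-8902, and FOXO3 (−0.87, SE 0.05), DDIT3 and JUN were lower. In MIA PaCa-2 MYC (0.59, SE 0.06) and FOS were higher and TP73 (−1.54, SE 0.15), FOXO3 and DDIT3 were lower, and the number of calls was 3 without dox replicate 2. FOXO3, a forkhead factor that activates BCL2L11 and BBC3, was thus called lower in both lines (−0.77, SE 0.12, in MIA PaCa-2), as was the stress factor DDIT3 (−0.79, SE 0.09, and −0.61, SE 0.14), both pointed out after their values were seen. The share called was 40% in Pa-Tu-8902 and 33.3% in the other line, the highest of the 7 lists in each, in a list of 15 genes chosen with results known. Of 14 tested p53 target genes outside the family, TP53INP1 (2.97, SE 0.24) and ZMAT3 (0.95, SE 0.09) were higher in Pa-Tu-8902 and GADD45A was lower. In MIA PaCa-2 SESN2 was higher and CCNG1 (−1.17, SE 0.07), FDXR (−1.01, SE 0.09) and GDF15 were lower. The shares called were 21.4% and 28.6%. The p53 targets did not move in 1 direction in either line, with list medians of −0.01 and −0.11, and those of the transcription factors were −0.16 and 0.05.

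**Figure D5:**
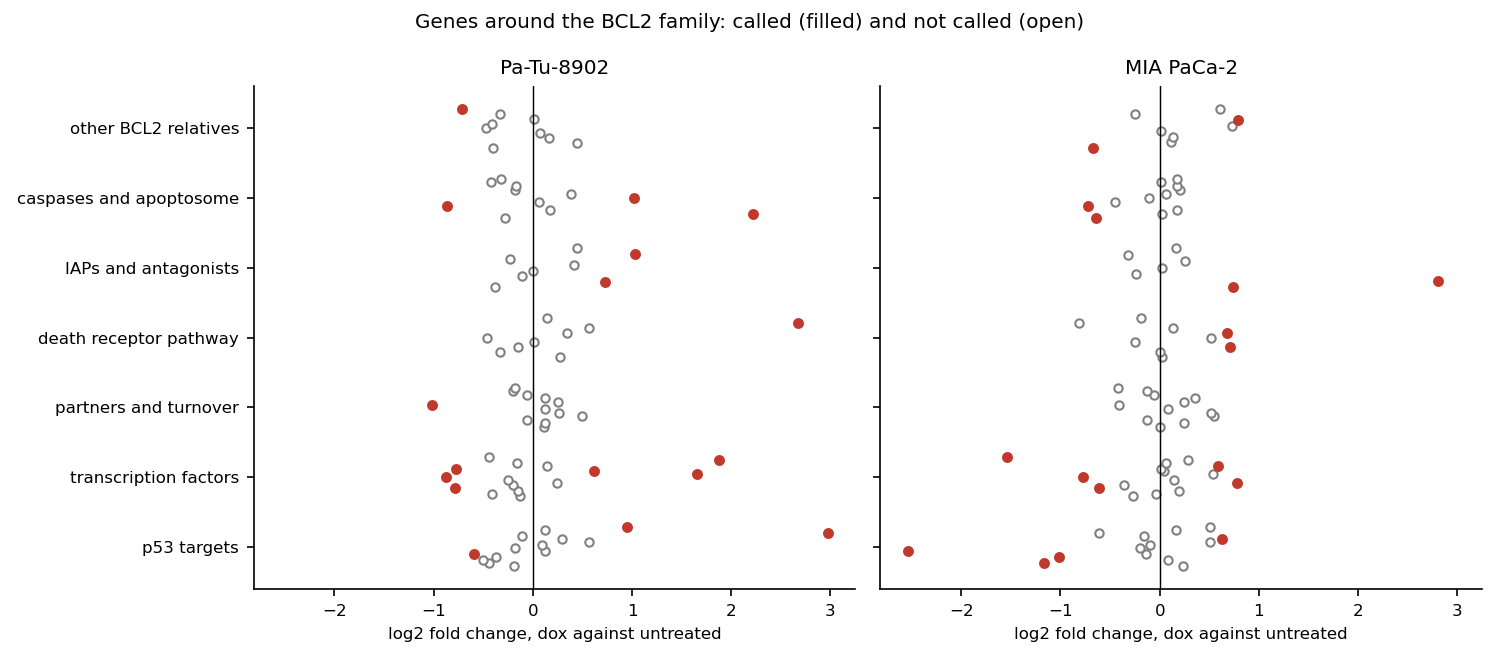
Log2 fold change of dox against untreated (horizontal axis) for each tested gene of the 7 lists in Pa-Tu-8902 (left) and MIA PaCa-2 (right); filled red points are called genes, open points are not called, and vertical scatter within a list only separates points. TP53INP1 stood at 2.97 on the left and BIRC3 at 2.80 on the right.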

How the data were processed

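RNA-seq of poly(A) RNA was performed on 12 libraries of 2 cell lines, grouped by their deposited titles. The authors trimmed reads with Trimmomatic 0.39 and ran RSEM 1.3.1 with STAR 2.5.2a at default parameters on GRCh38 and GENCODE release 29. They deposited expected counts, TPM and effective lengths per gene and transcript, with replicates kept separate and no filter. FPKM was not used here. Counts, of which 5.34% were not whole, were rounded, scaled by TMM and put through the quasi-likelihood test of edgeR 4.0.16 (R 4.3.3) for genes that reached 10 counts in 3 or more libraries of the fit, with Benjamini-Hochberg adjustment over all genes tested. Each line was fitted alone, and the contrasts between lines came from 1 fit of all 12 libraries. SE is the size of the log2 fold change over the root of its F statistic, and the 95% interval is 1.96 SE to each side. This interval is a normal approximation, narrower than the quasi-likelihood test would give with so few libraries. TPM values were used as deposited.

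Positions and sequences are those of GENCODE release 44 (GRCh38), joined by Ensembl identifier. Of 92 transcripts of the members, 17 had no match. The members and lists were chosen with earlier results of these data known. Named genes are GOT1, the members, the 2 called genes of smallest p in each list and line, the 5 most like BMF and its neighbours in the order of fold change. Scripts were tested on simulated data. Alternatives were DESeq2 1.42.0 with and without shrinkage, its size factors in edgeR, other filters on low counts, effective lengths as offsets, a replicate block, no fold limit, 1 fit of all libraries and each library left out in turn. Lists under the alternatives, and the share of TPM on protein-coding transcripts over all genes with 10 counts in 3 libraries of a line, were added after the data were seen. Libraries held 26226516 to 43406131 counts, and no 2 replicates agreed within counting noise (chi-square per degree of freedom at least 2.22). A count of 0 allows up to 3 counts, which covers counting error only. Same-numbered libraries of a line correlated at −0.14 to 0.17 in their deviations from group means, so the replicate numbers were not taken as pairs. Some genes of the lists are not reported by name here.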

Additional observations from a re-analysis of the deposited data

Results flagged for a closer look

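In 2 members the response to dox differed between the lines by the test of the difference itself. PMAIP1 fell in both lines and fell less in Pa-Tu-8902 than in MIA PaCa-2, by 0.95 on the log2 scale (edgeR adjusted p = 9.16e-06), with every dox library below every untreated one in each line. For BCL2L1 the response in Pa-Tu-8902 minus that in MIA PaCa-2 was −0.93 (edgeR adjusted p = 4.21e-07), with 3 of 3 dox libraries lower in the first line and 3 of 3 higher in the second. Over 18 other settings and left-out libraries PMAIP1 ranged from 0.93 to 1.03 and BCL2L1 from −0.96 to −0.87, and both stayed called.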

How the results depend on the processing

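In Pa-Tu-8902 the same number of members, 5, was called without each library in turn. BMF there had a log2 fold change of 2.99 with effective lengths as offsets and 2.98 with DESeq2 shrinkage, and 3.91 to 4.09 with a library left out. BMF in MIA PaCa-2 turned to −0.17 with effective lengths and ranged from −0.0442 to 0.21 with a library left out. Members called in MIA PaCa-2 were 5 with no fold limit and 1 to 2 with a library left out. Values of members that were not called and changed sign were BCL2L11 (−0.45) and BID (0.11) in the difference between lines with effective lengths, and BID between untreated lines with no filter (−0.025), at least 10 counts in every library (−0.0072) and effective lengths (−0.17). With a library left out, BID ran from −0.0431 to 0.13 and BAX from −0.007 to 0.13 in Pa-Tu-8902, BID from −0.10 to 0.06 and BAK1 from −0.11 to 0.0253 in the difference between lines, and BID from −0.0932 to 0.0689 between untreated lines. Called genes of the other BCL2 relatives in Pa-Tu-8902 were 2 with no filter, 0 with effective lengths and 0 to 1 with a library left out. Those of the death receptor pathway were 0 with at least 10 counts in every library and 0 to 2 with a library left out for Pa-Tu-8902, and for MIA PaCa-2 1 with effective lengths and 1 to 2 with a library left out. In MIA PaCa-2, with a library left out, caspases ran from 1 to 2, binding partners from 0 to 1 and transcription factors from 3 to 5. By expected counts 4 of the 16 transcript shares did not overlap. The cause of these shifts was not tested, apart from genes that a stricter filter or fewer libraries left untested.

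With the replicate number as a block, 5 members were called for Pa-Tu-8902, 1 for MIA PaCa-2, 2 in the difference between lines and 6 between untreated lines, and the death receptor pathway in MIA PaCa-2 had 1 called gene.

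Depth limits BMF most, at 12 to 14 counts in untreated Pa-Tu-8902. Strand, dox alone and the hairpin used cannot be separated from these values.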
